A study of Mus musculus with 6 samples.

Results

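The cells described here carry transcripts of 4 genes that mark microglia, and they come from the tumors of mice with brain gliomas. They were chosen from the 2 libraries of CD45+ tumor cells. A cell was taken when it had at least 200 detected genes, at most 10% mitochondrial UMIs (unique molecular identifiers, the counted transcripts), less than 0.5% of its UMIs from S100a8 and S100a9, and at least 5 UMIs in the sum of P2ry12, Tmem119, Sparc and Olfml3. This rule gave 889 cells in library 1 and 1482 in library 2, 2371 of the 37490 cell barcodes of the 6 libraries. They are called 4-gene-positive cells below. The pooled levels of genes that the rule did not use went with the label of microglia in one portion of them and only in part in another.

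Each mouse received 10000 SB28 cells, a mouse glioma line, and was sampled on day 18. Blood was drawn, the mice were perfused with saline, and tumor and blood cells were taken for droplet-based 3' single-cell RNA sequencing. The groups used were CD45+ cells of the tumor, where CD45 marks leukocytes, and cells sorted as neutrophils (CD45+ CD11b+ LY6G high, LY6C low or negative) from tumor and from blood, with 2 libraries each. All groups carried the same tumor, so no microglia from a tumor-free brain were measured. Strain, sex, age and the number of mice per library are not given in the sources used here.

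Microglia are the resident macrophages of the brain tissue. They arise from embryonic precursors in the yolk sac, need signalling through the CSF1 receptor to survive, and hold their identity through TGF-beta and the transcription factor Sall1. In a glioma they are joined by macrophages that differentiate from blood monocytes, and both kinds make the C1q subunits C1qa, C1qb and C1qc. The cells were therefore compared with other cells of the same library that had at least 5 C1q UMIs and a 4-gene sum of at most 1. These are called C1q-positive macrophages and numbered 2196 and 1738. A second comparison used monocytes, defined by at least 3 UMIs of Ly6c2, at most 1 C1q UMI and a 4-gene sum of at most 1, of which there were 448 and 281.

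The libraries held between 3121 and 9418 barcodes and between 13945799 and 129422458 UMIs. The median 4-gene-positive cell had 13274 UMIs in library 1 and 18889 in library 2, against 9578 and 15150 in C1q-positive macrophages and 6018 and 8732 in monocytes. A rule on a UMI sum selects deeper cells, so results were also computed on cells reduced to 2000 UMIs each ("thinned"). The barcode sets overlapped by between 3 and 35 barcodes, except that library 1 and the second library of neutrophil-sorted tumor cells shared 162. The shared barcodes had a median of 740 UMIs in the former and 27893 in the latter. Among all 4-gene-positive cells, 14 and 11 had a barcode that also occurred in another library, and values without them are given where they differ.

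The 4 genes that defined the cells lie on 3 chromosomes of the mm10 build. P2ry12 (chr3:59216272-59262871, minus strand) encodes a purinergic receptor with which microglial processes find leaking ATP and ADP, and Tmem119 (chr5:113793729-113800516, minus strand) encodes a membrane protein used as a microglia marker. Sparc (chr11:55394500-55423183, minus strand) encodes a secreted matrix protein, and Olfml3 (chr3:103722222-103738001, minus strand) a secreted olfactomedin-like protein. Tmem119 was detected in 90.3% and 91.4% of the cells, Olfml3 in 77.7% and 81.6%, P2ry12 in 68.2% and 74.9% and Sparc in 64.1% and 65.8%. Sparc nevertheless supplied the most UMIs, 39.7% and 39.9% of the sum. All 4 genes were seen together in 38.4% and 47.0% of the cells, and 36 and 30 cells had neither P2ry12 nor Tmem119. The rule set no C1q limit, and 833 (93.7%) and 1410 (95.1%) of the cells had at least 5 C1q UMIs. These values describe the choice of the cells and test nothing.

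Promoters are shown for the marker P2ry12 and for Cst7 and Fcrls, which were among the 10 genes with the largest excess over C1q-positive macrophages described below. The ETS family of transcription factors, to which the myeloid factor PU.1 belongs, binds sites built around GGAA, and the search used AGGAAGT and its reverse complement ACTTCCT. Of the 4 marker genes and those 10 genes, 11 of 14 had a promoter in the RefSeq table for GRCm38.p6, and 5 of these 11 held the motif in at least 1 promoter (P2ry12, Cst7, Fcrls, Mir99ahg and Slco2b1). Over the whole table, 9.35% of 32851 promoters of the same length and 10.7% of 27025 genes held it. The motif was chosen after the genes were known, and a match of letters is not a measured binding site. The sequences run from 250 bases before to 50 bases after the RefSeq gene start. For P2ry12 this window lies wholly upstream of the mm10 gene coordinates given above, which place the start elsewhere. For Fcrls the mm10 coordinates (chr3:87250758-87263738, minus strand) place the start inside the window and upstream of the motif, so that the motif lies within the annotated gene. The motif is in capitals and is placed by the RefSeq start. It began 52 bases before the start in P2ry12 (chr3:59262936-59263235, minus strand), 63 in Cst7 (chr2:150570165-150570464, plus strand) and 75 in Fcrls (chr3:87263475-87263774, minus strand).
P2ry12: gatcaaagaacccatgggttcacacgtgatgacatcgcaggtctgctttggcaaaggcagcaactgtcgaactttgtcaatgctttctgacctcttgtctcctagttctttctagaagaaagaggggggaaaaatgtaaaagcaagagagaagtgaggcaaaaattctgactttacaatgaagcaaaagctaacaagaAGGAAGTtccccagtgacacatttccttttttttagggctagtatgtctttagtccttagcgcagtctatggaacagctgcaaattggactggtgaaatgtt
Cst7: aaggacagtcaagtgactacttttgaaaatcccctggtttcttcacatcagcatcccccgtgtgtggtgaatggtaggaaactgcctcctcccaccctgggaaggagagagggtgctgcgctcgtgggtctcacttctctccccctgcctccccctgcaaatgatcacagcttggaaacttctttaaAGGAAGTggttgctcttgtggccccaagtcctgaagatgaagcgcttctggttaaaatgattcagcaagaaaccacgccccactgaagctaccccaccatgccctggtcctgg
Fcrls: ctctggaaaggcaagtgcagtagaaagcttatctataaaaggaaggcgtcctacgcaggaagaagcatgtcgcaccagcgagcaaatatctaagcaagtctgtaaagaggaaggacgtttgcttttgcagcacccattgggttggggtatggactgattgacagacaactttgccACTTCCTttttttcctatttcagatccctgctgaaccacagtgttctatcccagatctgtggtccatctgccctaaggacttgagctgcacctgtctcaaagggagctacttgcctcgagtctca

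The cells spread widely in the 4-gene sum. Sums of 5 to 9 UMIs were held by 468 cells (52.6%) in library 1 and 686 (46.3%) in library 2, sums of 10 to 19 by 197 (22.2%) and 246 (16.6%), and sums of 20 or more by 224 (25.2%) and 550 (37.1%). The latter are called high-sum cells below, and the division at 20 was made after the distribution was seen. Just outside the rule, with a sum of 4 and at least 5 C1q UMIs, were 236 and 290 cells. Just inside it, with a sum of 5 and no C1q requirement, were 198 and 238.

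**Figure D1:**
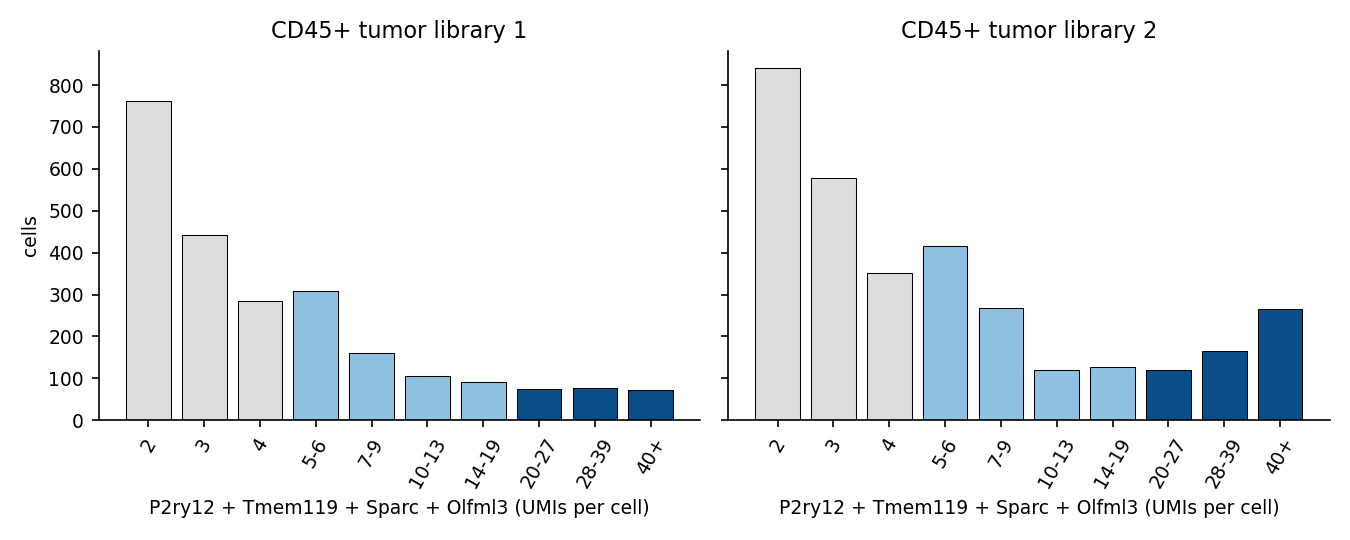
Number of cells (vertical axis) by the sum of P2ry12, Tmem119, Sparc and Olfml3 UMIs per cell (horizontal axis, bins of growing width, so that bar heights do not show density; sums of 0 and 1 not shown) in each CD45+ tumor library. Grey bars are cells below the rule, light blue 5 to 19 UMIs, dark blue 20 or more; 265 cells of library 2 and 73 of library 1 reached 40 UMIs.

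High-sum cells carried the profile that the label names. Cx3cr1, the receptor for the neuronal ligand fractalkine, was at 1137 and 947 CPM (UMIs scaled to the same total in each group of cells) in them and at 101 and 65.1 CPM in C1q-positive macrophages. Sall1 was at 75.3 and 67.0 CPM against 1.10 and 0.532. Of the genes typical of monocyte-derived cells, lysozyme (Lyz2) and arginase (Arg1) ran the other way. Lyz2 was at 2368 and 2890 CPM against 9498 and 11531, and Arg1 at 676 and 599 CPM against 3084 and 3249. Plac8 did not follow them, at 67.7 and 87.6 CPM against 88.6 and 76.5.

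Cells with 5 to 9 UMIs lay close to the macrophages in Lyz2 and Arg1. In them Lyz2 was at 9283 and 12091 CPM and Arg1 was at 2766 and 3483 CPM. Cx3cr1 (287 and 164 CPM) and Sall1 (8.66 and 3.41 CPM) were above the macrophage levels and far below those of high-sum cells. Pf4, a chemokine made by platelets and by some brain-border and tumor macrophages, was higher in these cells, at 2308 and 2191 CPM, than in either macrophages (1167 and 1150) or high-sum cells (355 and 394). Ms4a7, another gene of border and monocyte-derived macrophages, had the same order, with 222 and 153 CPM against 99.9 and 64.2 in macrophages and 45.9 and 36.9 in high-sum cells. Values just outside and just inside the rule were alike: Cx3cr1 was at 217 and 122 CPM at a sum of 4 and at 211 and 132 CPM at a sum of 5. Only the cells with a sum of 4 had to hold at least 5 C1q UMIs.

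The group between them depended on the library. At 10 to 19 UMIs Arg1 was at 1197 CPM in library 1 and 2495 in library 2, and Pf4 at 749 and 1871 CPM. By these pooled levels, the label of microglia was met by the high-sum cells and only in part by the cells with 5 to 9 UMIs. The latter made up about as many of all 4-gene-positive cells as the rest together in both libraries. Pooled levels cannot show whether those cells were alike or a mixture of microglia and macrophages. Their median depth was 13617 and 20382 UMIs, against 10635 and 14908 in cells with sums of 10 to 19. Each fold change below is an average over cells of all these sums. Values for high-sum cells alone are given for a number of genes, with no test. Of 115 named genes with a value, 104 differed there by more than the spread between replicates and 2 others, which had passed the test, changed direction.

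**Figure D2:**
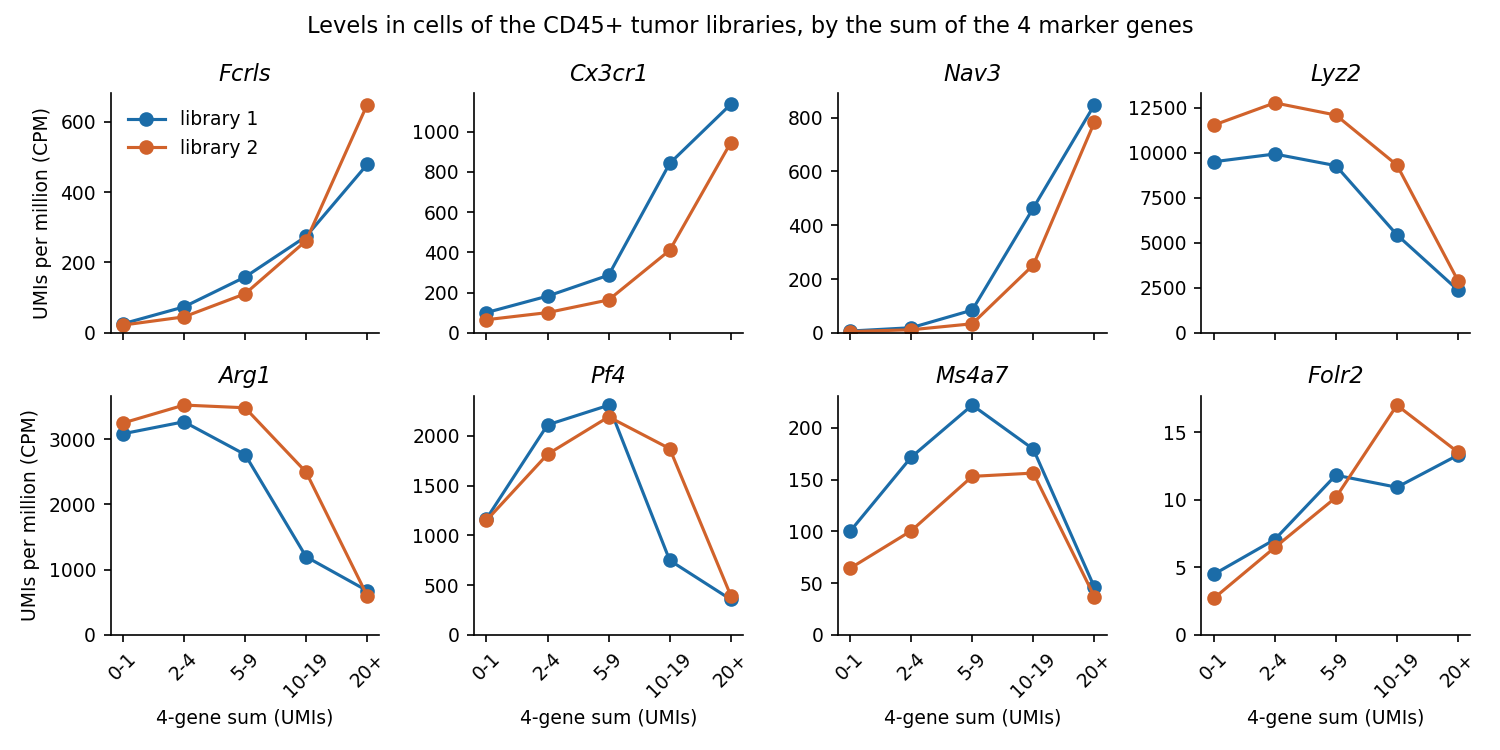
Level of 8 genes in CPM (vertical axes, from 0) in cells with at least 5 C1q UMIs or inside the rule, by the 4-gene sum (horizontal axis), with 1 line per CD45+ tumor library. Fcrls, Cx3cr1 and Nav3 rise with the sum, Lyz2 and Arg1 fall above 9 UMIs, and Pf4 and Ms4a7 are highest at intermediate sums.

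Against C1q-positive macrophages of the same library, 2047 of 14820 tested genes were higher in 4-gene-positive cells (13.8%) and 1822 lower (12.3%), 26.1% in all, by edgeR's quasi-likelihood test on summed UMIs with library as a block and a Benjamini-Hochberg adjusted p under 0.05. Of these, 871 were at least 2-fold higher (5.88% of genes) and 189 at least 2-fold lower (1.28%). Genes used in the rules, S100a8, S100a9 and mitochondrial genes were left out of these counts. The median difference over all genes was -0.01 on the log2 scale. The cells were chosen on the same libraries, so genes that vary with the 4 marker genes from cell to cell differ in part by that choice. Counts rest on the block, since 313 genes were higher and 107 lower without it. With the block, the p-values cover how the differences between classes varied between the 2 libraries, and not how the libraries themselves differed. The labels do not say that the libraries came from separate mice, so that variation may be technical.

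The largest excess over macrophages was in Nav3, a neuron navigator gene, at 341 and 345 TMM-scaled CPM against 6.28 and 4.70 (log2 difference 5.98 ± 0.12 SE, adjusted p = 6.07e-10). Both libraries of 4-gene-positive cells lay far above both libraries of macrophages. Siglech, a sialic acid-binding lectin of microglia and plasmacytoid dendritic cells, was at 72.4 and 94.7 TMM-scaled CPM against 2.65 and 1.23 (5.53 ± 0.54, adjusted p = 3.61e-05). Fcrls, an Fc receptor-like scavenger receptor, was at 247 and 334 TMM-scaled CPM against 24.9 and 22.4 (3.61 ± 0.12). Cst7, the cysteine protease inhibitor cystatin F, was at 71.6 and 86.7 TMM-scaled CPM against 4.73 and 3.58 (4.26 ± 0.14). The complement gene C4b rose by 3.50 ± 0.24, and Fat3, Ptprm, Mir99ahg, Pmp22 and Slco2b1 by between 3.14 (Slco2b1) and 4.32 (Fat3). In Siglech the difference was 4.71 in library 1 and 6.15 in library 2, in Fat3 3.52 and 5.44, and in C4b 2.82 and 4.199.

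Among the 10 lowest was Ear2, an eosinophil-associated ribonuclease of monocytes and macrophages, at 10.8 and 9.71 TMM-scaled CPM against 82.5 and 60.4 (log2 difference -2.78 ± 0.12, adjusted p = 9.46e-08). Chil3, a chitinase-like protein of monocytes and alternatively activated macrophages, was at 463 and 472 TMM-scaled CPM against 1841 and 1493 (-1.84 ± 0.20). Prtn3, a neutrophil and monocyte serine protease, was at a log2 difference of -1.92 ± 0.08, and the dendritic cell chemokine Ccl17 was at 32.9 and 20.3 TMM-scaled CPM against 68.3 and 78.6. Wfdc21, Spink2, Csta2, Ms4a8a, Lcn2 and Klhdc4 lay between -2.22 (Wfdc21) and -1.39 (Klhdc4). In high-sum cells Prtn3 was at -3.49, Wfdc21 at -3.98 and Csta2 at -4.12. Csta2 was at -2.40 in library 1 and -0.94 in library 2. It lost its call with DESeq2, where its difference was -1.82 (adjusted p = 0.102), and at a minimum of 3 UMIs (adjusted p = 0.0812).

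**Figure D3:**
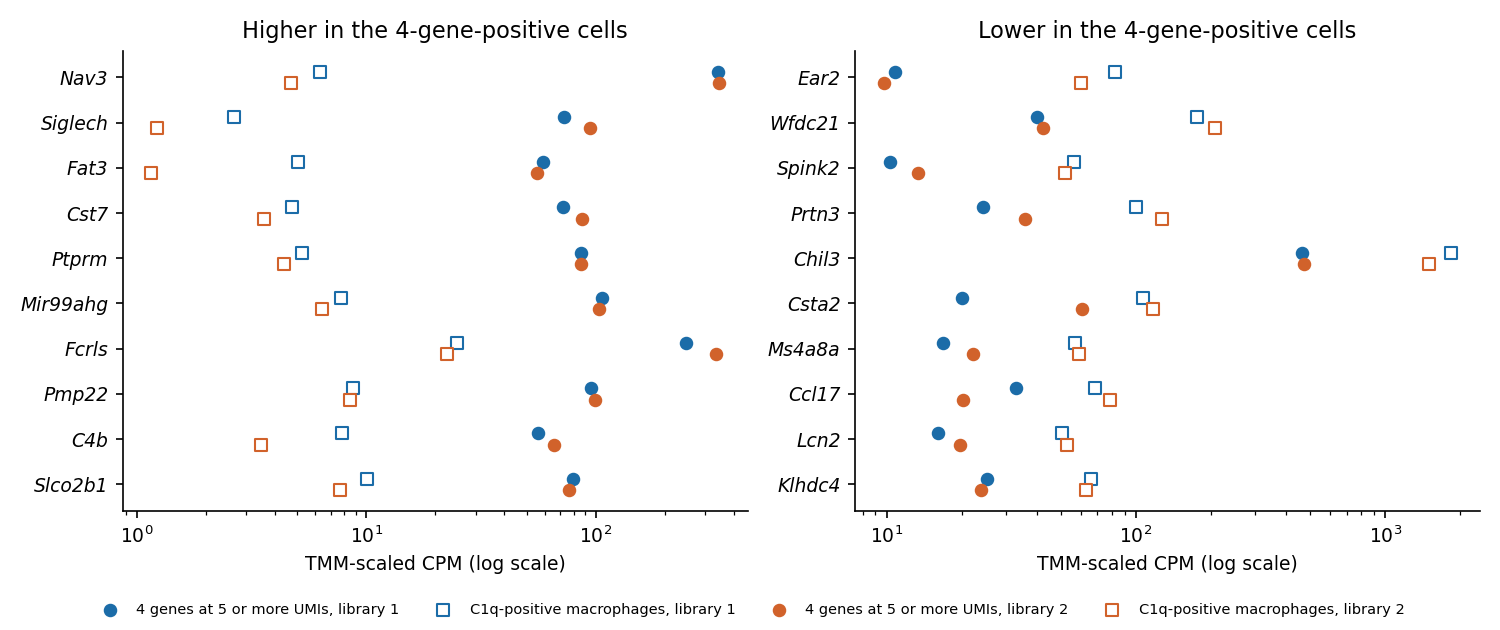
TMM-scaled CPM (horizontal axes, log scale) of the 10 genes with the largest and the 10 with the lowest differences among called genes at 50 CPM or more. Filled circles are 4-gene-positive cells, open squares C1q-positive macrophages, blue library 1 and orange library 2; for Nav3 the circles lie at 341 and 345 and the squares at 6.28 and 4.70.

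Genes known as further microglia markers were higher almost throughout. Of 20 listed genes other than the 4 of the rule, 19 rose and none fell, with a median log2 difference of 1.39 against -0.01 over all genes. Gpr34, a lysophosphatidylserine receptor, rose by 3.77 ± 0.15, Crybb1 by 4.92 ± 0.14 and Cx3cr1 by 2.72 ± 0.12. Csf1r, the receptor on which microglia depend, rose by 1.19 ± 0.08 and Trem2, a lipid-sensing receptor, by 0.90 ± 0.12. The listed gene that did not pass was Rgs1, at a difference of 0.01 ± 0.07. All 19 stayed above macrophages in the high-sum cells, where Cx3cr1 was at a log2 difference of 3.59 against 2.72 over all 4-gene-positive cells.

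Transcription factors of microglia split into those above C1q-positive macrophages and those at a like level. Sall1 (chr8:89027235-89044162, minus strand), at 30.6 and 29.7 TMM-scaled CPM against 1.10 and 0.545, rose by 5.22 ± 0.23, and its relative Sall3 by 5.50 ± 0.21. Mef2c rose by 1.66 ± 0.12, Smad3 by 1.49 ± 0.12 and Egr1 by 1.05 ± 0.07. PU.1 itself (Spi1) was at 0.05 ± 0.07 and Runx1 at 0.14 ± 0.08, and neither passed the test. Of the 15 listed factors 11 rose and none fell. In the comparison with monocytes 8 of the 15 were higher and 4 lower, and Smad3 was at -0.03 ± 0.14 and did not pass.

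Receptors and signal carriers of the TGF-beta and CSF1 axis followed. Of 15 tested genes 9 rose and none fell, with a median of 0.58. Tgfbr2, the ligand-binding TGF-beta receptor, was at 166 and 150 TMM-scaled CPM against 65.5 and 61.4 (1.31 ± 0.07). Tgfbr1 rose by 0.97 ± 0.07, the inhibitory Smad7 by 0.95 ± 0.07 and the integrin subunit Itgb5 by 1.22 ± 0.07. The ligand Tgfb1 was at 0.07 ± 0.07 and did not pass. Csf1, the ligand of Csf1r, was at 108 and 127 TMM-scaled CPM against 30.1 and 42.0 and rose by 1.71 ± 0.08.

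Of 30 sensing receptors 16 rose and 4 fell. The ADP receptor P2ry13 rose by 1.39 ± 0.11, the medium-chain fatty acid receptor Gpr84 by 2.09 ± 0.08 and the RNA sensor Tlr7 by 1.23 ± 0.09. Lag3, a checkpoint receptor of T cells that microglia also express, was at 35.5 and 37.1 TMM-scaled CPM against 3.18 and 2.52 (3.69 ± 0.25). The endotoxin receptor Tlr4 was lower, at -0.60 ± 0.07, as was the lectin Clec5a at -0.69 ± 0.07.

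Genes of the lysosome and of phagocytosis were higher in 17 of 27 and lower in 4, with a median of 0.41. Cathepsin F (Ctsf) was at 19.9 and 24.6 TMM-scaled CPM against 1.63 and 2.11 (3.57 ± 0.16). Gas6, a bridge between dying cells and the receptors Axl and Mertk, rose by 3.76 ± 0.13, while Mertk rose by 0.90 ± 0.14 and Axl was lower at -0.29 ± 0.07. The scavenger receptor Marco had 0.137 and 0 TMM-scaled CPM, against 1.92 and 1.12 in macrophages. Complement genes other than C1q were higher in 5 of 13 and lower in 3. C4b led them, and properdin (Cfp) was lower at -0.65 ± 0.07 overall and at -2.03 in high-sum cells. Serping1, at 0.548 and 0.796 TMM-scaled CPM, passed in edgeR and not in DESeq2 (adjusted p = 0.282), and its difference was 1.49 in library 1 and 2.62 in library 2.

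Genes of disease-associated microglia, a state described in neurodegeneration, moved in both directions, with 10 of 24 higher and 6 lower and a median of 0.17. Besides Cst7, Igf1 was at 41.6 and 36.9 TMM-scaled CPM against 11.6 and 7.29 (2.08 ± 0.16), and cathepsin D (Ctsd) rose by 0.95 ± 0.10. Apoe rose by 0.54 ± 0.17 (adjusted p = 0.039). Spp1, or osteopontin, was lower at -0.31 ± 0.10 and Gpnmb at -0.79 ± 0.15, and in high-sum cells they were at -0.71 and -2.21. Of 23 genes of lipid handling 3 rose and 10 fell. Apoc1 rose by 2.08 ± 0.13 and the cholesterol 25-hydroxylase Ch25h by 3.05 ± 0.23, while the lipid-sensing nuclear receptor Pparg was at 7.67 and 9.36 TMM-scaled CPM against 25.4 and 32.3 (-1.75 ± 0.15, and -3.53 in high-sum cells).

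Cytokine and chemokine genes were divided, with 12 of 31 higher and 10 lower. Tnf was at 144 and 192 TMM-scaled CPM against 42.1 and 42.9 (1.97 ± 0.09). Ccl12, a ligand of the monocyte receptor Ccr2, was at 224 and 633 TMM-scaled CPM against 49.4 and 85.4 (2.55 ± 0.14). Ccl4 rose by 1.95 ± 0.10, Ccl3 by 1.13 ± 0.07, Ccl5 by 1.72 ± 0.12 and Il1a by 0.85 ± 0.09. In contrast, Il1b was at -0.43 ± 0.07, the neutrophil attractant Cxcl2 at -0.54 ± 0.08, Il6 at -0.73 ± 0.10 and Ccl6 at -1.13 ± 0.09. All of these kept their direction in high-sum cells, where Tnf was at 310 and 399 CPM against 43.2 and 41.9 in macrophages.

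Antigen presentation differed between the classes of MHC molecules. Of 13 class II genes 7 were lower and 2 higher, with a median of -0.52. H2-Eb1, a class II chain, was at 289 and 253 TMM-scaled CPM against 422 and 447 (-0.68 ± 0.13, adjusted p = 0.0031), and the invariant chain Cd74 at -0.52 ± 0.14. H2-Oa and H2-Ob, which restrain class II loading, were the 2 that rose, by 1.09 ± 0.19 and 1.44 ± 0.23. Of 19 class I genes 10 rose and none fell, with a median of 0.28. B2m, the shared light chain, rose by 0.53 ± 0.09 and H2-K1 by 0.52 ± 0.09. Interferon-stimulated genes were higher in 15 of 27 and lower in 2, led by Cxcl10 at 128 and 136 TMM-scaled CPM against 62.3 and 52.3 (1.21 ± 0.11).

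Monocyte-derived genes were the mirror image of the microglia markers. Of 24, 21 fell and none rose, with a median of -0.75. Besides Ear2 and Chil3, the receptor Ccr2 fell by 1.06 on the log2 scale (SE 0.07), Vcan by 1.10 and Crip1 by 1.13. The differences of Lyz2 (-0.56 ± 0.11) and Arg1 (-0.68 ± 0.09) were small over all 4-gene-positive cells and reached -2.08 and -2.39 in high-sum cells. Plac8 went from -0.44 over all 4-gene-positive cells to -0.17 in high-sum cells. Genes of border-associated macrophages, which line the meninges and vessels, did not move together, with 4 of 11 higher and 1 lower. Folr2 rose by 1.77 ± 0.21 and Stab1 by 1.12 ± 0.08. Ms4a7 rose by 0.70 ± 0.07 over all 4-gene-positive cells but was at -1.02 in high-sum cells and at -0.0096 after thinning. Mrc1 (-0.38 ± 0.18) and Pf4 (0.28 ± 0.21) did not pass, and were at -2.21 and -1.73 in high-sum cells.

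Genes of hypoxia and glycolysis were lower in 20 of 30 and higher in 2, with a median of -0.48. Lactate dehydrogenase A (Ldha) was at -0.46 ± 0.08, phosphoglycerate kinase 1 (Pgk1) at -0.55 ± 0.09 and the angiogenic factor Vegfa at -0.61 ± 0.08. In high-sum cells Ldha was at 282 and 372 CPM against 537 and 764 in macrophages, and Vegfa at 79.9 and 80.3 CPM against 244 and 341. The 2 that rose were Pfkfb3 (0.95 ± 0.07), which drives glycolytic flux, and the glucose transporter Slc2a3 (1.83 ± 0.30). Nuclear genes of the respiratory chain were lower in 12 of 20 and higher in 1, Ndufa4, with a median of -0.22.

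In immune regulation, 8 of 24 genes rose and 11 fell. Cd83 rose by 1.72 ± 0.11, the ATP-degrading enzyme Entpd1 by 0.54 ± 0.07 and the checkpoint gene Vsir by 0.45 ± 0.07, while Nt5e, which makes adenosine, was at 144 and 189 TMM-scaled CPM against 284 and 361 (-0.95 ± 0.11) and Nos2 at -0.62 ± 0.09. In high-sum cells Nt5e was at -2.56 and Nos2 at -2.77. Matrix and adhesion genes moved both ways, with 13 of 33 higher and 12 lower. The metalloprotease Adamts1 was at 34.7 and 48.7 TMM-scaled CPM against 0.571 and 1.06 (5.66 ± 0.15), Serpine2 rose by 4.94 ± 0.15 and Icam1 by 2.01 ± 0.11, and Cd44 was at -0.81 ± 0.08. Mmp13 rose by 0.62 ± 0.10 over all 4-gene-positive cells and was at -1.503 in high-sum cells and at -0.17 after thinning.

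Iron genes showed 4 of 16 higher and 4 lower, among them the exporter ferroportin (Slc40a1) at 1.64 ± 0.16 and the siderophore-binding Lcn2 at -1.51 ± 0.14. Immediate early and heat shock genes were higher in 9 of 24 and lower in 4, with Egr1 at 597 and 717 TMM-scaled CPM against 297 and 336 and Atf3 at 0.98 ± 0.10. Immediate early genes can be induced by tissue dissociation, and the part of handling in these values was not tested. Proliferation genes were largely level, with 2 of 23 higher and 3 lower and a median of 0.00, and Mki67 was at 0.12 ± 0.08.

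**Figure D4:**
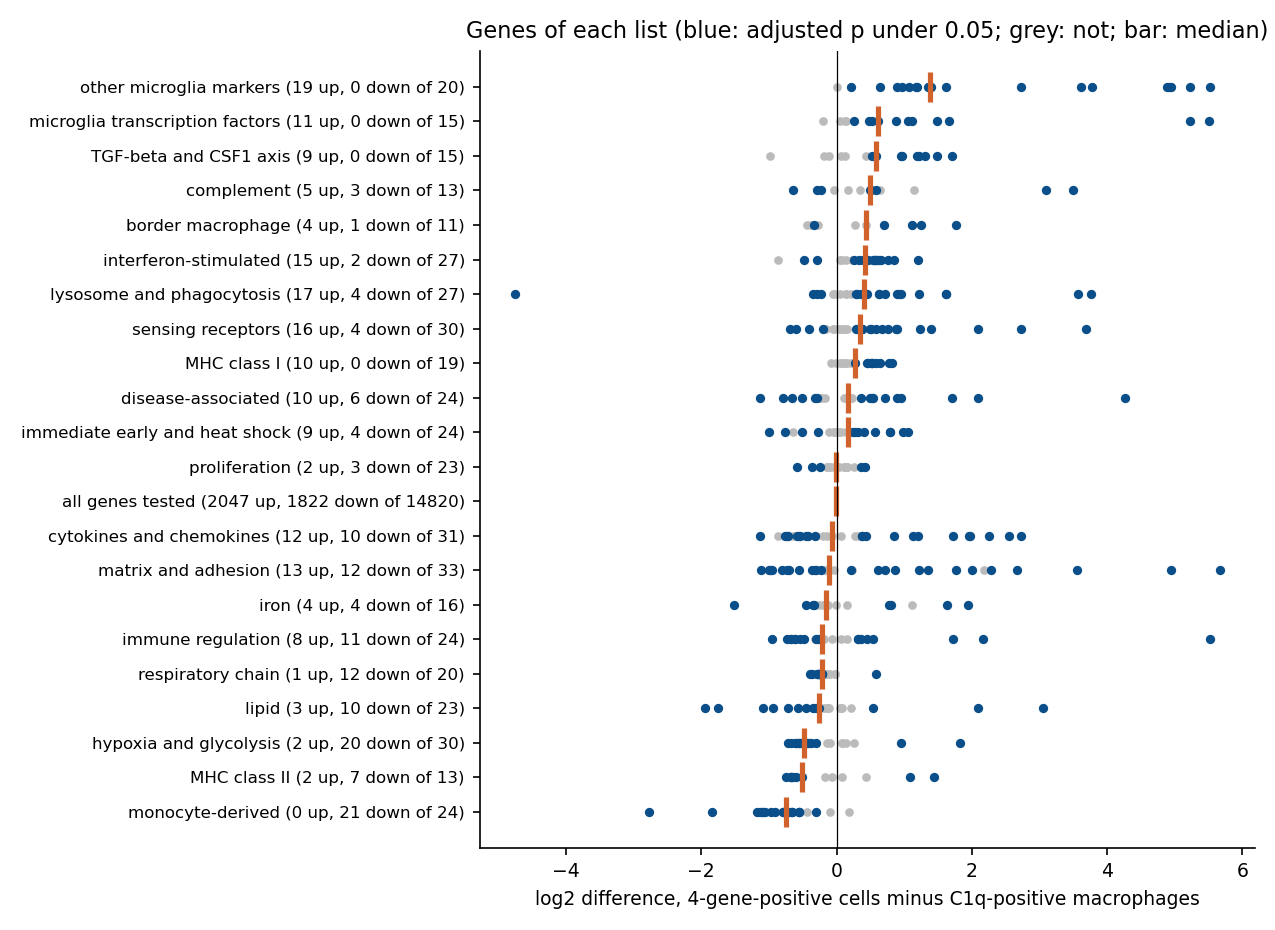
Log2 difference of each tested gene (horizontal axis) between 4-gene-positive cells and C1q-positive macrophages, by gene list (rows, ordered by their median, orange bar), blue where the adjusted p was under 0.05. The other microglia markers lie to the right, with a median of 1.39, and the monocyte-derived genes to the left, with a median of -0.75.

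Against Ly6c2-positive monocytes, 2608 genes were higher in 4-gene-positive cells (17.6%) and 2620 lower (17.7%), 35.3% in all. At least 2-fold differences made up 8.58% of genes (1272 higher) and 6.01% (890 lower), and the median over all genes was 0.05. Cell cycle genes separated these groups, with 20 of 23 proliferation genes higher, none lower and a median of 2.11. Mki67, a protein of dividing cells, was at 89.2 and 64.4 TMM-scaled CPM against 19.2 and 13.7 (2.21 ± 0.13, adjusted p = 6.18e-07). Interferon-stimulated genes were lower in 25 of 27 and higher in none, with a median of -1.27. Isg15 was at 72.5 and 82.3 TMM-scaled CPM against 328 and 358 (-2.15 ± 0.07). The same list was on balance higher than in macrophages, and the 2 comparisons share the 4-gene-positive cells.

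Monocyte genes fell, as the division by Ly6c2 already favours, with Plac8 at 59.6 and 63.0 TMM-scaled CPM against 1027 and 1612 (-4.41 ± 0.16). Of the other microglia markers 17 of 20 rose and none fell. Fcrls was at 247 and 334 TMM-scaled CPM against 2.61 and 4.16 (6.44 ± 0.23), and Siglech, at 1.30, did not pass (adjusted p = 0.0732). Its difference was 0.16 in library 1 and 4.62 in library 2, and monocytes had 64.9 and 3.74 TMM-scaled CPM. Trem2 rose by 2.16 ± 0.14 and Ctsd by 2.19 ± 0.11. Monocytes had the lowest depth of the 3 classes, and 1384 genes were higher and 1666 lower when each cell was thinned. Monocyte markers, Ly6c2 among them, summed to 6506 and 8536 CPM in this class, against 2304 and 2052 over all cells that passed the filters. T cell markers summed to 116 and 106 CPM against 75.8 and 36.9, and NK cell markers to 156 and 130 CPM against 78.9 and 39.5. The part of other cell types in the monocyte class was not tested.

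Genes that varied most among the 4-gene-positive cells were ranked by the Fano factor, the variance over the mean, on thinned counts, where a count that varies by sampling alone has a Fano factor of about 1 and the median gene had 1.13 and 1.12. Gm42418, a gene model that overlaps ribosomal RNA, came first with 156 and 48.6. Apoe followed with 35.1 and 42.9, then Fth1, the ferritin heavy chain, with 22.3 and 22.6 and Spp1 with 18.5 and 18.4. Lyz2 (13.1 and 18.7) and Pf4 (12.7 and 19.3), which marked the cells of 5 to 9 UMIs above, were also among the first 6. The remainder of the 15 were Cd74, Hmox1, Cxcl2, Ftl1, Mmp12, Ccl6, Ctsd, Cst3 and Chil3. Among high-sum cells alone, Apoe (32.0 and 37.0), Spp1 (21.5 and 19.8) and Fth1 (13.8 and 12.9) were the 3 most variable genes. Lyz2 (6.78 and 13.2) and Pf4 (6.22 and 10.3) were also among the first 15.

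Markers of other cell types were read in the same cells. Border-macrophage markers summed to 2355 and 2417 CPM over all 4-gene-positive cells and to 675 and 673 CPM in high-sum cells, against 2335 and 2167 CPM in C1q-positive macrophages. Most of this was Pf4 (1449 and 1483 CPM), F13a1 (662 and 611 CPM) and Mrc1 (238 and 315 CPM), while Lyve1 (0.374 and 0.411 CPM) and Cd163 (0.300 and 2.46 CPM) were near 0. Monocyte markers summed to 861 and 827 CPM, to 492 and 462 CPM in high-sum cells, and to 2529 and 2104 CPM in macrophages. Of the glioma or neural progenitor markers, Olig2 and Bcan were at 0 in both libraries and Pdgfra at 0 and 0.0948 CPM. Cspg4 was at 3.74 and 4.64 CPM and Nes at 4.27 and 2.53 CPM. These markers summed to 8.31 and 7.90 CPM, to 16.9 and 15.1 CPM in high-sum cells, and to 0.544 and 1.10 CPM in macrophages. The summed astrocyte markers reached 56.2 and 53.3 CPM against 26.8 and 26.6 in macrophages. The glutamate transporter Slc1a3 was higher, at 40.4 and 35.5 CPM against 1.47 and 1.00, and Aldoc lower, at 12.1 and 12.2 CPM against 22.3 and 22.3, while Gfap was at 0.749 and 1.55 CPM and Aqp4 at 0.1498 and 0.379 CPM. T cell markers summed to 85.8 and 24.5 CPM against 43.1 and 19.7 in macrophages. B cell markers summed to 102 and 29.98 CPM against 26.2 and 9.58, of which Ighm gave 80.3 and 18.9. Dendritic cell markers summed to 131 and 135 CPM, and to 242 and 290 CPM in high-sum cells, against 26.7 and 32.7 in macrophages. Siglech gave 161 and 216 CPM of the dendritic sums in high-sum cells. Neutrophil markers summed to 276 and 322 CPM against 316 and 262, a sum that includes S100a8 and S100a9, which the rule limits. S100a8 was lower, at 128 and 139 CPM against 252 and 172, and S100a9 higher, at 41.4 and 65.5 CPM against 20.3 and 28.6. Csf3r was at 77.3 and 72.1 CPM against 23.6 and 22.6, and Retnlg at 14.1 and 18.6 CPM against 5.69 and 9.05. G0s2 (11.2 and 20.3 CPM against 9.755 and 18.1) and Cxcr2 (4.42 and 7.49 CPM against 4.06 and 11.7) differed less. Endothelial markers summed to 57.8 and 42.5 CPM, to 89.4 and 26.9 CPM in high-sum cells, and to 46.8 and 39.0 CPM in macrophages. Among them, Cldn5 was at 23.9 and 0 CPM in high-sum cells against 0.0419 and 0.0333 in macrophages. Pericyte or fibroblast markers summed to 9.73 and 7.27 CPM, to 20.9 and 7.24 CPM in high-sum cells, and to 4.40 and 5.42 CPM in macrophages. The part of these cell types in the results was not tested.

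T cells served as a measure of background. They were taken as cells with at least 3 Cd3 UMIs and at most 1 C1q UMI and should lack arginase, yet 22.3% and 13.7% of thinned T cells had an Arg1 UMI. The share of thinned high-sum cells with an Arg1 UMI was 28.1% and 19.6%, against 84.0% and 85.5% of C1q-positive macrophages. Median depths before thinning were 5017 and 6501 UMIs in T cells and 13907 and 18022 in high-sum cells. The source of the Arg1 UMIs in T cells, free RNA or doublets, was not tested. Nav3, by contrast, had a UMI in 68.3% and 70.4% of thinned high-sum cells and in 0 and 0.980% of thinned T cells.

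The sorts for neutrophils gave a second view of high-sum cells. In the 2 libraries of neutrophil-sorted tumor cells, 129 and 160 cells met the same rule, 19.6% and 22.96% of the 658 and 697 cells that passed all filters and 3.12% and 2.43% of those that passed the quality limits alone. In blood 0 and 1 cell met it. The limit on S100a8 and S100a9 had left only 86 and 78 blood cells, and 0 of 86 allows a share of up to 4.199% (Clopper-Pearson). High-sum cells were 58.1% and 69.4% of these tumor cells, a larger part than in the CD45+ libraries. In library 2 of the sort, 73 of the 160 had a barcode shared with another library. Without shared barcodes, 74 and 52 high-sum cells remained, 58.3% and 59.8% of the cells that met the rule.

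In the remaining high-sum cells of the neutrophil sort some microglia genes were above the levels of the CD45+ libraries. Nav3 was at 959 and 909 CPM against 847 and 785, and Cx3cr1 at 1351 and 1628 CPM against 1136 and 946. Fcrls overlapped, at 426 and 756 CPM against 481 and 646. Arg1 and Pf4 were nearly absent. Arg1 was at 1.11 and 1.23 CPM against 680 and 601, and Pf4 at 5.57 and 9.85 CPM against 357 and 395. With shared barcodes, Arg1 was at 48.7 CPM in library 2 of the sort. The class II chain H2-Eb1 was at 21.2 and 1.23 CPM against 261 and 270, and Lyz2 at 759 and 770 CPM against 2380 and 2900. These sorted cells held 0.124% and 0.0837% of their UMIs in S100a8 and S100a9, against 0.0152% and 0.0144% in the CD45+ libraries. The sort, the gate and the library cannot be told apart.

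**Figure D5:**
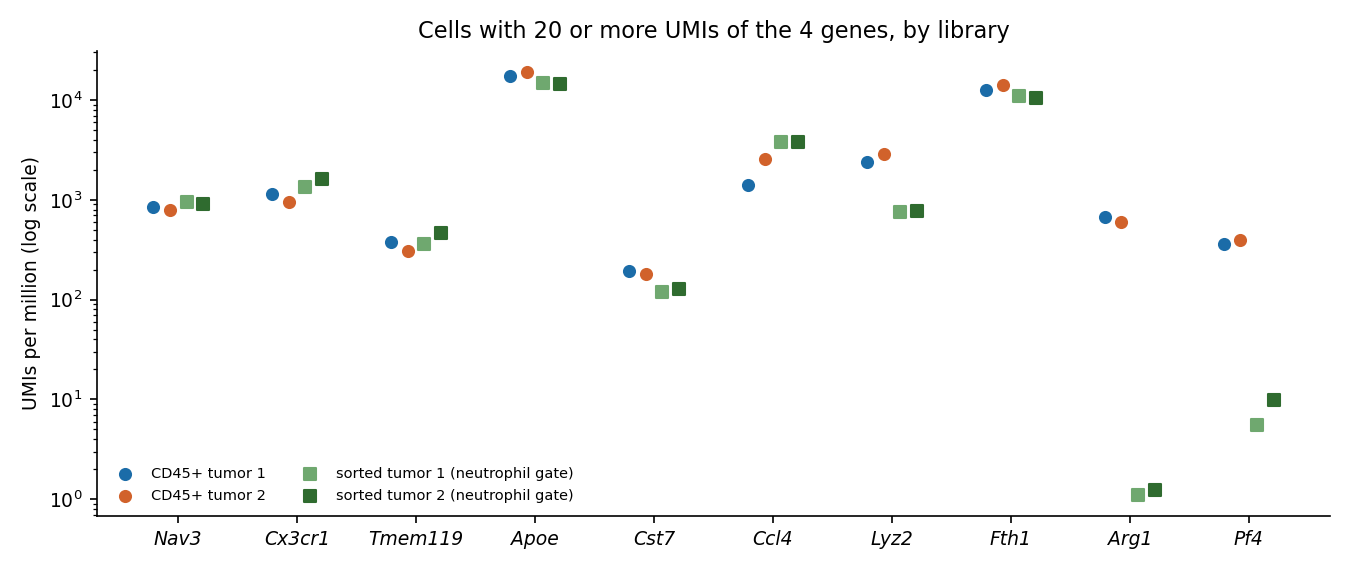
Level of 10 genes in CPM (vertical axis, log scale) in cells with 20 or more UMIs of the 4 genes, without shared barcodes, in the 2 CD45+ tumor libraries (circles) and the 2 libraries of neutrophil-sorted tumor cells (squares). Arg1 and Pf4 lie far lower in the squares, at 1.11 and 1.23 and at 5.57 and 9.85 CPM, and Nav3 and Cx3cr1 slightly higher.

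The share of 4-gene-positive cells among all cells that passed the filters was 10.3% in library 1 (95% Clopper-Pearson interval 9.64 to 10.9%) and 19% in library 2 (18.1 to 19.9%), a mean of 14.6% ± 6.18 (SD, n = 2). The intervals cover counting error only. With each cell thinned and a limit of at least 2 UMIs on the sum, which changes depth, limit and denominator together, the shares were 8.33% and 11.8% of 7613 and 7452 cells. High-sum cells made up 2.59% and 7.05% of the cells that passed the filters.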

How the data were processed

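The deposited files hold raw UMI counts per gene and cell, for which the submitters' processing notes name Cell Ranger 7.1.0 and the mm10 build; annotation version and intron setting are not given in the sources used here. The cells and gene lists were chosen with earlier results of these data known. Counts were summed per library and class and tested with edgeR 4.0.16 (TMM, filterByExpr, quasi-likelihood test, Benjamini-Hochberg adjustment) on 6 sums from 3 classes of 2 libraries, with library as a block, because classes of 1 library come from the same tube. Libraries are thus paired across classes by construction. On simulated counts for 14407 genes, the fit against macrophages recovered 100% of 2-fold changes with 8 false calls, and the fit against monocytes 89% with 7 false calls. The simulation changed 200 genes in 1 class and gave all other genes the same mean in every sum. It had no library effect and no choice of cells by their genes, so it does not measure errors in the real calls. Named genes were the 4 of the rule, the 10 highest and 10 lowest called genes at 50 CPM or more, up to 4 called genes per list with the largest difference, the 15 with the highest Fano factor, and uncalled list genes as values. Other called list genes named as examples (such as Trem2, Tgfbr1, Smad7, Tlr7, Il1b, Lyz2 and Arg1) were outside this rule and chosen after their values were seen. Doublets were kept. Removing the highest Scrublet scores, up to 0.8% per 1000 cells, was an alternative. It took out 700 of 9352 and 607 of 8714 cells that passed the quality limits in libraries 1 and 2. Among them were 152 of the 889 and 199 of the 1482 4-gene-positive cells, and the shares of such cells became 9.17% and 17.6%. Further alternatives were DESeq2 1.42.0, other limits on the 4-gene sum, thinning to 2000 UMIs and leaving out shared barcodes. Gene coordinates are from GENCODE on mm10 and promoters from RefSeq on GRCm38.p6. Some genes are not reported here.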

Additional observations from a re-analysis of the deposited data

Results flagged for a closer look

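Cells that were removed because S100a8 and S100a9 made up 0.5% or more of their UMIs included some with at least 5 UMIs of the 4 genes, and this share was higher in tumor than in blood. It was 4.04% of 693 removed cells in library 1 of the CD45+ tumor cells and 9.96% of 914 in library 2. In the neutrophil-sorted tumor libraries it was 3.50% of 3482 and 2.18% of 5885, against 1.32% of 3029 and 1.15% of 5232 in blood. In blood, 99.6% and 98.9% of these UMIs were P2ry12 and none of the cells had 5 C1q UMIs. In the tumor libraries P2ry12 gave between 9.09% and 17.7% of them, and 28, 89, 111 and 122 cells had at least 5 C1q UMIs.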

How the results depend on the processing

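Against macrophages, the 3869 called genes became 420 with no replicate block (74.5% of them higher, against 52.9%), 2290 with DESeq2, 2179 at 3 or more UMIs, 2428 when P2ry12 and Tmem119 alone chose the cells, and 2488 with each cell thinned, where 10740 genes could be tested. Against monocytes, the 5228 became 2244 with no replicate block and 3050 with each cell thinned. The cause was not tested. Of 117 named genes, 50 lost their call against macrophages with no replicate block, and none changed direction. Reversed values were those of Mmp13 (main 0.62), at -0.56 with 10 or more UMIs, -1.503 with 20 or more and -0.17 thinned; of Ms4a7 (main 0.70), at -1.02 with 20 or more and -0.0096 thinned; and of Pf4 (main 0.28, not called), at -0.93 with 10 or more (edgeR adjusted p = 0.0034). The mean share of 14.6% became 24.8% at 3 or more UMIs, 7.53% at 10 or more and 4.82% at 20 or more, the latter added after seeing the data, and ranged from 10.3% to 19% when a library was left out. Leaving out a library left no residual degrees of freedom for the gene tests, so only fold values were computed. Against macrophages, 16 of 117 named genes moved by more than the spread between libraries, or changed sign without having passed the test, without library 2, and 6 without library 1. The limits at 20 UMIs and the removal of shared barcodes were likewise chosen after seeing the data; without shared barcodes 3852 genes were called against macrophages, 3807 of them among the 3869.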
